A study of Homo sapiens with 6 samples.

Results

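Extracellular signal-regulated kinase (ERK) is the last kinase of the RAS, RAF and MEK relay that growth factor receptors switch on, and its activity makes cells transcribe genes that restrain it as well as genes that carry its signal on. The 10 ERK-induced genes described here, called ERK feedback genes for short, were taken by symbol from a table of 26372 genes: the dual-specificity phosphatases DUSP1, DUSP4, DUSP5 and DUSP6, the Sprouty and Spred genes SPRY1, SPRY2, SPRY4 and SPRED1, and the PEA3 transcription factors ETV4 and ETV5. All 10 were in the table and all 10 passed the filter of a mean of 1 FPKM or more, as did 13434 genes in all. FPKM counts fragments per length of transcript and per size of library, so levels of different genes can be set side by side.

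The RNA came from SH-SY5Y, a human neuroblastoma line, grown in 15% fetal bovine serum, which itself supplies growth factors. Both arms carried a lentiviral vector whose U6 promoter drives a short hairpin RNA: one aimed at TDP-43 in the knockdown (shTDP-43, libraries titled shT2), and shNC in the control (libraries titled shNC3), whose sequence is not given in the labels. TDP-43 is an RNA-binding protein of the nucleus, encoded by TARDBP. Knockdown cells were kept 2 weeks under puromycin at 2 μg/mL and then at 1 μg/mL, and the protocol names no selection for the control. Each arm had 3 poly(A) libraries with 1 hairpin name per arm. The labels do not state separate cultures behind them. P-values therefore measure library-to-library spread, which may be technical.

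DUSP proteins remove phosphate from mitogen-activated protein kinases. DUSP1, DUSP4 and DUSP5 act mainly in the nucleus and DUSP6 in the cytoplasm, and DUSP5 and DUSP6 prefer ERK while DUSP1 and DUSP4 also act on the stress kinases p38 and JNK. Sprouty and Spred proteins sit at the membrane and dampen the step from receptor to RAS and RAF, and SPRED1 does so by bringing neurofibromin to RAS. ETV4 and ETV5 differ in kind: they carry the ERK signal into the nucleus as activators of transcription, and their own transcripts rise with ERK activity. Some transcripts of these genes are used widely as readouts of ERK output, and in neuroblastoma some follow activation of ALK and RAS.

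Promoters are shown because all 10 genes moved the same way (below). Those of 3 genes span the range from the most to the least changed on the log2(FPKM + 1) scale. RefSeq starts on GRCh38.p14, the assembly behind the authors' hg38, gave 9 windows of 300 bases (250 before to 50 after the start) for 6 of the 10 genes. Capitals mark matches to the motifs searched. The DUSP1 window is chr5:172771146-172771445 on the minus strand, the SPRY1 window is the second of 2 starts, chr4:123398136-123398435 on the plus strand, and the DUSP6 window is chr12:89352452-89352751 on the minus strand.
DUSP1: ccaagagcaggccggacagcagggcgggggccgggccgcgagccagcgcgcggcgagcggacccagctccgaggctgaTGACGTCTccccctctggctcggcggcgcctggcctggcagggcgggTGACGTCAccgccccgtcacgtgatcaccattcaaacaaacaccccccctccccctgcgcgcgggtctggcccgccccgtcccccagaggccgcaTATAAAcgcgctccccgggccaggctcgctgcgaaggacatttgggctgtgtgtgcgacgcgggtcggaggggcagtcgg
SPRY1: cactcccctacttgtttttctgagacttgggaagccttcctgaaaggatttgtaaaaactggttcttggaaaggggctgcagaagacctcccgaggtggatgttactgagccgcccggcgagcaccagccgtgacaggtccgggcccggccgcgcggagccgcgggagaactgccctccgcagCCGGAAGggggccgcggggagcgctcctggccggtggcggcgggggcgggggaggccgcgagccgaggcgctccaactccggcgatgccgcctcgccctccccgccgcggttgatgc
DUSP6: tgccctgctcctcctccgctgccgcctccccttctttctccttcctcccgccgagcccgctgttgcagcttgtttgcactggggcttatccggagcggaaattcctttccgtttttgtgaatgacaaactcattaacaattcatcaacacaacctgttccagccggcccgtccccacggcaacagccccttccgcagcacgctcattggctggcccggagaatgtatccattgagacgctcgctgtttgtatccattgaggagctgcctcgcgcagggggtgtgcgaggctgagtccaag

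The search covered both strands. DUSP1 held the full cAMP response element TGACGTCA, which 1.85% of 35116 such windows hold, beginning 125 bases before the start. The looser TGACGTCN (3.45% of windows), which also covers every full element, matched once more at 172 bases, and TATAAA (11.5%) matched at 30 bases. SPRY1 held the ETS-type letters CCGGAAG (10.3% of windows) at 67 bases before its second start. No other match to these, to TGANTCA of AP-1 (7.71%), to TGAATGAA (1.65%) or TGAATGGA (1.03%) of the repressor Capicua, or to the CArG box of serum response factor (1.29%) lay in the 9 windows, which says only that these letters are not there. GC content of the windows ran from 44.7% to 76.3%, against a median of 58.7% over all windows.

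TARDBP was lower in the knockdown, at 21.9, 20.7 and 20.98 FPKM against 50.3, 50.3 and 47.7 FPKM in the control, a log2 fold change of -1.19 (standard error 0.045, limma adjusted p = 6.69e-08). The arms differed across much of the transcriptome: 66.3% of tested genes passed an adjusted p of 0.05, with 35.9% lower and 30.5% higher in the knockdown. That split depends on scaling and was 28.1% lower and 40.1% higher after quantile normalization. After scaling every column to the same total it was 87.0% lower and 3.89% higher, and the median log2 fold change of all genes was then -0.82. Column totals were 2123050 to 2449948 FPKM in the knockdown and 1182985 to 1226728 FPKM in the control. With 6 small RNAs of extreme FPKM kept out of the totals, 38.4% of genes were lower and 28.2% higher, and the median was -0.047. FPKM does not give the number of fragments, so absolute depth is unknown, and steps between low values put the libraries at 52.6% (knockdown library 2) to 100% of the deepest. Of 15 tested noradrenergic neuroblastoma markers 11 rose and 4 fell, the 4 being DBH, SCG2, STMN2 and RET. HAND2, a transcription factor of that list, measured 345.5 to 395.9 FPKM in knockdown libraries and 208.7 to 211.3 FPKM in control libraries, and TH, for tyrosine hydroxylase, was listed at 0 in all libraries.

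All 10 ERK feedback genes were lower in the knockdown, and for each the 3 knockdown libraries lay under the 3 control libraries. Background for these counts was 35.9% of tested genes called lower and 38.2% with the knockdown libraries all under the control libraries. DUSP1, DUSP4, DUSP5, SPRY1 and SPRY2 fell by more than 2-fold on the log2(FPKM + 1) scale, which 7.95% of tested genes did. The median log2 fold change of the 10 was -0.96, beside -0.020 for all tested genes, and the range was -2.70 to -0.34. Summed over the 10 genes, the level was 98.2 ± 6.70 FPKM in the knockdown and 231.7 ± 6.00 FPKM in the control (SD, n = 3 each). In a bulk sample fewer cells of a type and less RNA per cell cannot be told apart.

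**Figure D1:**
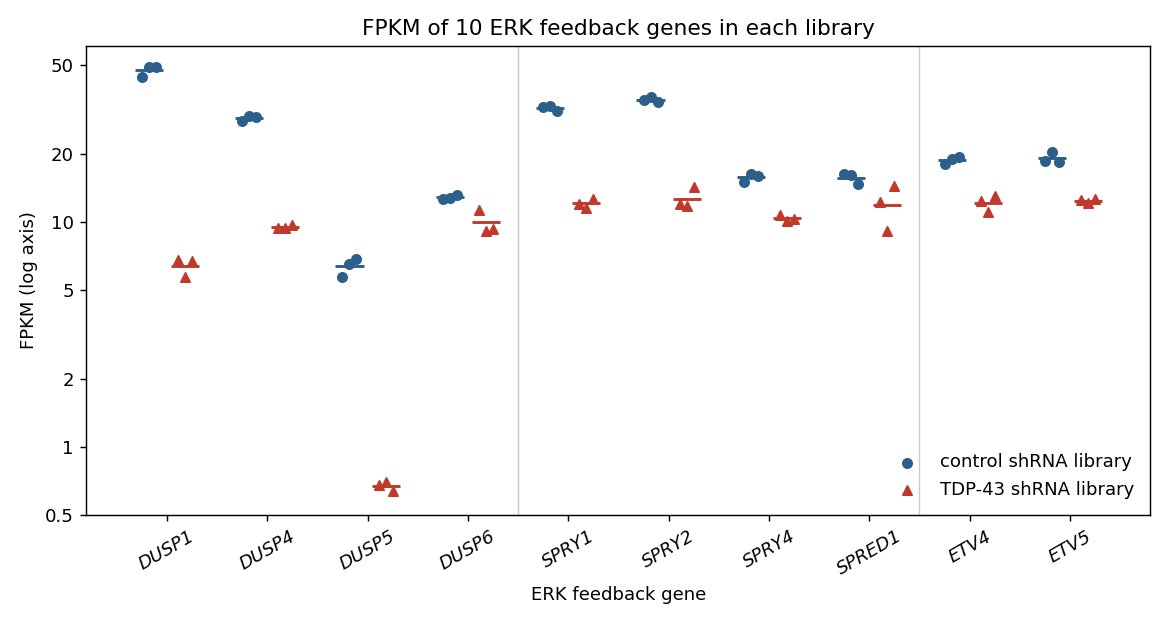
FPKM (log axis) of the 10 ERK feedback genes in the 3 control libraries (circles) and the 3 knockdown libraries (triangles), with a bar at each mean. For every gene the triangles lie under the circles, far apart for DUSP1 and DUSP5 and nearly touching for SPRED1.

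Among the phosphatases the ratio of control to knockdown means ran from 9.49 for DUSP5 to 1.29 for DUSP6. DUSP1 (chromosome 5, 172768090 to 172771195, minus strand, GRCh38) encodes the classical immediate-early phosphatase. Knockdown libraries held 6.76, 5.72 and 6.71 FPKM of it, control libraries 44.1, 48.6 and 48.7 FPKM. It was the most abundant of the 10 in the control and the second lowest in the knockdown. The ratio of means was 7.37, the log2 fold change -2.70 (standard error 0.071, limma adjusted p = 6.84e-09), and 1.32% of tested genes had a lower log2 fold change.

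DUSP5 (chromosome 10, 110497838 to 110511544, plus strand), a nuclear phosphatase of ERK, was the scarcest of the 10 in both arms. Its levels were 0.676, 0.696 and 0.638 FPKM in the knockdown and 5.68, 6.52 and 6.87 FPKM in the control. By ratio of means it changed most (9.49-fold lower), while its log2 fold change of -2.14 (standard error 0.086, limma adjusted p = 9.74e-08) is smaller than that of DUSP1 because the added 1 weighs on low levels. With a minimum mean of 5 FPKM it drops out of the test.

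DUSP4 (chromosome 8, 29333064 to 29350668, minus strand), which inactivates ERK, p38 and JNK in the nucleus, stood at 9.35, 9.38 and 9.68 FPKM in the knockdown. Control libraries gave 27.9, 29.6 and 29.2 FPKM. The groups lay 18.3 FPKM apart at their nearest, and the level fell 3.05-fold (log2 fold change -1.51, standard error 0.048, limma adjusted p = 2.18e-08).

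DUSP6 (chromosome 12, 89347232 to 89353271, minus strand), the cytoplasmic ERK phosphatase and one of the most used reporters of ERK activity, changed least. Knockdown libraries gave 11.4, 9.15 and 9.34 FPKM and control libraries 12.6, 12.8 and 13.2 FPKM. The nearest values of the 2 arms were 1.24 FPKM apart, and the knockdown held 77.4% of the control level (log2 fold change -0.34, standard error 0.080, limma adjusted p = 0.00471). So 25.7% of tested genes had a lower log2 fold change than DUSP6.

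These unequal falls changed the makeup of the group. In the control DUSP1 made up 49.5% ± 0.575 of the summed FPKM of the 4 phosphatases, and in the knockdown 24.1% ± 1.26 (SD, n = 3 each). DUSP6 went from 13.5% ± 0.422 to 37.5% ± 2.56, above DUSP1 in each knockdown library, and above DUSP4 in library 1 only. DUSP4 kept a more even share, 30.4% ± 0.568 against 35.8% ± 2.30, and DUSP5 went from 6.66% ± 0.362 to 2.54% ± 0.219. For each of the 4 genes the shares of one arm did not overlap those of the other. They are a description with no test.

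**Figure D2:**
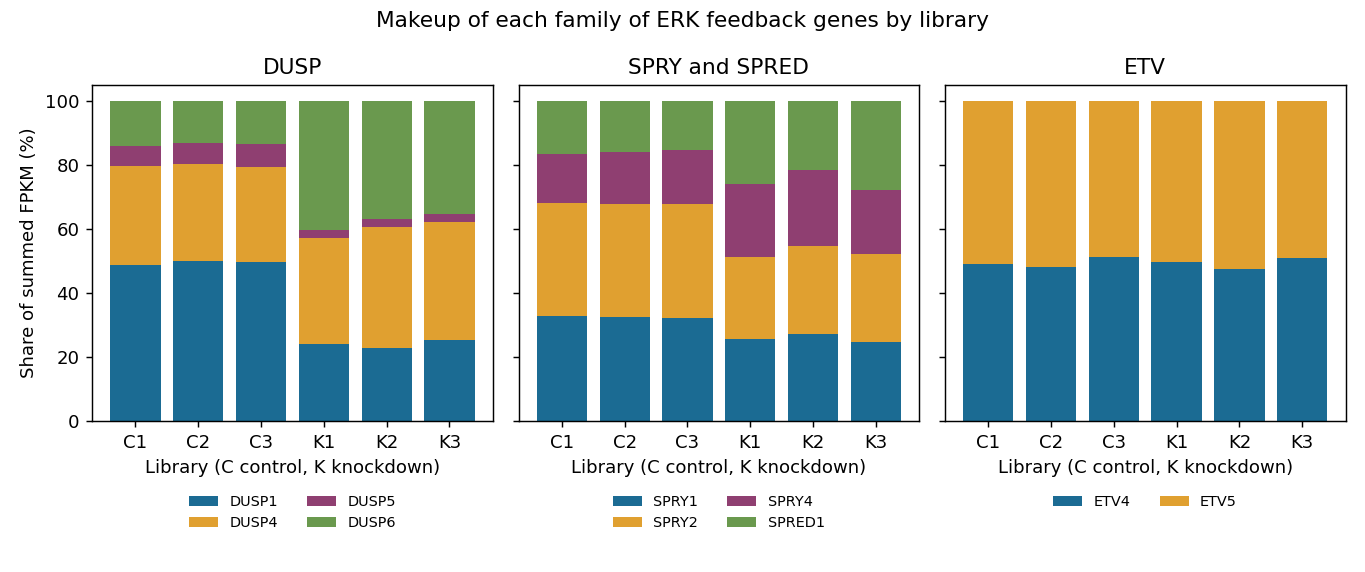
Share (%) of the summed FPKM that each gene held within the 4 phosphatases, the 4 Sprouty and Spred genes and the 2 ETV genes, for each control library (C1 to C3) and knockdown library (K1 to K3). DUSP6 and SPRED1 take larger shares in the knockdown, while ETV4 and ETV5 stay near equal parts.

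SPRY1 and SPRY2 fell together. SPRY2 (chromosome 13, 80335976 to 80340951, minus strand), a brake on receptor signalling to RAS, stood at 12.0, 11.7 and 14.3 FPKM in the knockdown and at 34.8, 35.7 and 34.1 FPKM in the control. SPRY1 (chromosome 4, 123396795 to 123403760, plus strand), which acts at the same step, gave 12.04, 11.6 and 12.7 FPKM against 32.5, 32.6 and 31.0 FPKM. Both arms are wide apart for either gene, and the levels were 2.76-fold and 2.65-fold lower. Their log2 fold changes were -1.40 (standard error 0.072, limma adjusted p = 4.35e-07) and -1.33 (standard error 0.052, limma adjusted p = 7.55e-08).

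SPRY4 and SPRED1 fell less. SPRY4 (chromosome 5, 142310427 to 142326455, minus strand), another Sprouty gene that ERK induces, stood at 10.7, 10.1 and 10.3 FPKM in the knockdown and 15.1, 16.3 and 16.1 FPKM in the control. That is 65.6% of the control level (log2 fold change -0.56, standard error 0.054, limma adjusted p = 2.35e-05). SPRED1 (chromosome 15, 38252326 to 38357249, plus strand) was the least even of the 10, at 12.2, 9.10 and 14.4 FPKM in the knockdown and 16.25, 16.1 and 14.8 FPKM in the control. Its knockdown library 3 lay 0.420 FPKM under control library 3, and the coefficient of variation in the knockdown was 22.3%, against 1.92% to 12.3% for the other 9.

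The call for SPRED1 was the weakest of the 10 (log2 fold change -0.39, standard error 0.134, limma adjusted p = 0.0282). In limma it was lost without control library 1 (adjusted p = 0.0764), without control library 2 (0.0763), with quantile normalization (0.0838) and with no filter on low genes (0.165), and over all settings its adjusted p ran from 2.44e-07 to 0.165. Without knockdown library 2, the shallowest, the log2 fold change was -0.23. Within the 4 Sprouty and Spred genes SPRED1 held 16.0% ± 0.538 of the sum in the control and 25.1% ± 3.33 in the knockdown (SD, n = 3 each), while SPRY2 went from 35.4% ± 0.152 to 26.9% ± 1.17.

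ETV4 and ETV5, the transcription factors of the group, kept in step. ETV4 (chromosome 17, 43527844 to 43579620, minus strand) stood at 12.4, 11.1 and 13.1 FPKM in the knockdown and 18.01, 18.97 and 19.5 FPKM in the control. ETV5 (chromosome 3, 186046308 to 186110318, minus strand) stood at 12.5, 12.2 and 12.6 FPKM against 18.7, 20.4 and 18.5 FPKM. The arms did not overlap for either gene, and the level was 1.54-fold lower for both. Their log2 fold changes were -0.59 (standard error 0.068, limma adjusted p = 7.51e-05) and -0.59 (standard error 0.055, limma adjusted p = 1.99e-05). ETV4 held 49.5% ± 1.58 of the sum of the pair in the control and 49.4% ± 1.66 in the knockdown. An exact permutation test on log2(FPKM + 1), two-sided, gave p = 0.1 for each of the 10 genes. With 3 against 3 libraries it cannot give less.

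**Figure D3:**
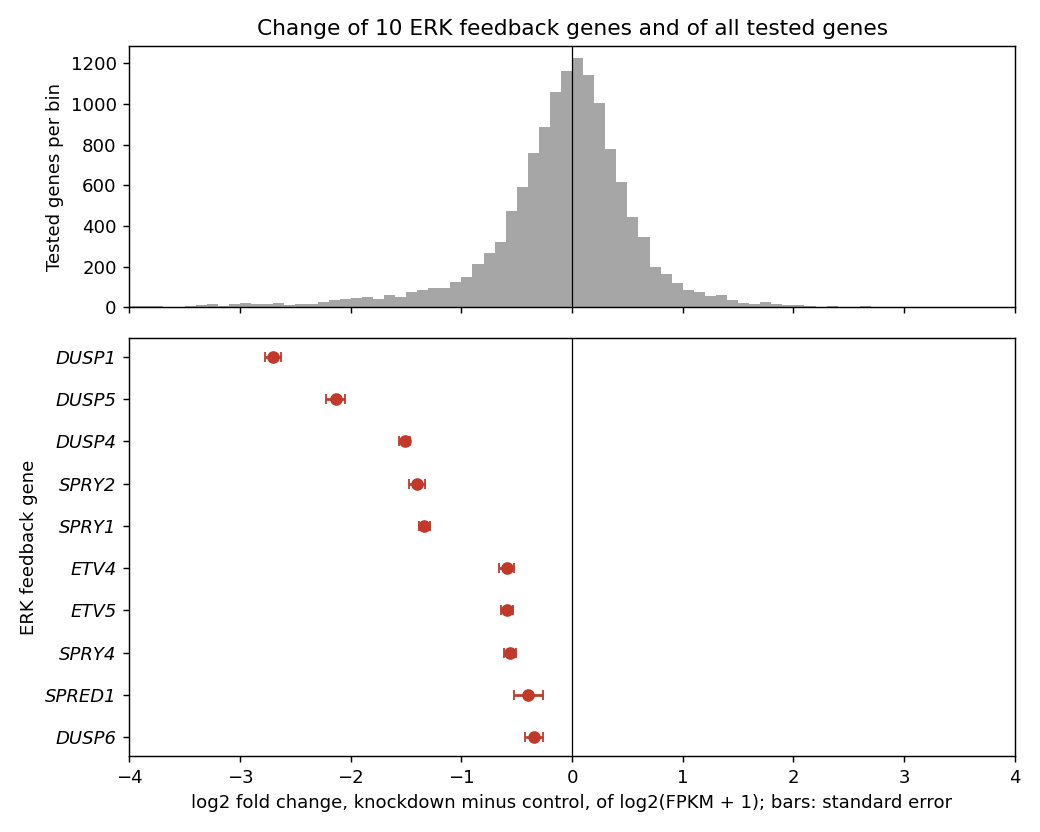
Log2 fold change (knockdown minus control, log2 of FPKM + 1) with its standard error for the 10 ERK feedback genes (lower panel), under a histogram of the same quantity for tested genes between -4 and 4 (upper panel). DUSP1, DUSP5, DUSP4, SPRY2 and SPRY1 lie at -1.33 or lower and the other 5 between -0.59 and -0.34.

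In the control the order of levels was DUSP1, SPRY2, SPRY1, DUSP4, ETV5, ETV4, SPRY4, SPRED1, DUSP6 and DUSP5. Libraries overlapped only for the neighbours ETV5 and ETV4 and for SPRY4 and SPRED1. In the knockdown the order was SPRY2, ETV5, ETV4, SPRY1, SPRED1, SPRY4, DUSP6, DUSP4, DUSP1 and DUSP5, and each neighbouring pair overlapped down to DUSP4. Without DUSP5 the highest of the other 9 means was 3.67 times the lowest in the control and 1.98 times in the knockdown. DUSP1, the highest of the control, and DUSP5 were the only ones whose knockdown libraries lay apart from those of their neighbours.

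**Figure D4:**
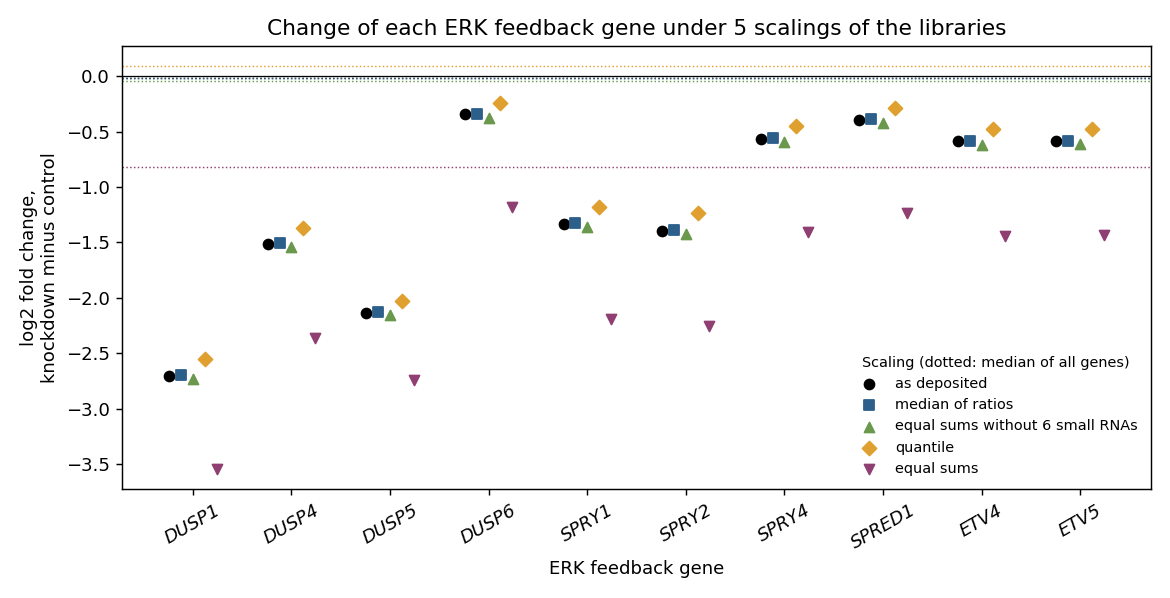
Log2 fold change of each of the 10 genes under 5 scalings of the libraries, with dotted lines at the median of all tested genes under each. Every point lies under 0 and under the median of its own scaling, and equal column sums, which move that median to -0.82, shift all points down.

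Scaling and filter moved the sizes but not the direction of the 10 genes. Their median log2 fold change was -0.83 with quantile normalization, where all tested genes had a median of 0.091. It was -1.81 at equal column sums, where that of all genes was -0.82, and -0.99 when the 6 small RNAs of extreme FPKM were kept out of those sums. A minimum mean of 5 FPKM left 9 of them with a median of -0.59, all called lower.

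What the rule did not use also differed among the 10. By GENCODE release 29 the gene spans ran from 3.11 kb for DUSP1 to 105 kb for SPRED1, beside a median of 32.6 kb over 12627 tested genes matched by symbol, and 7 of the 10 were shorter than that median. In the longest annotated 3′ untranslated region the AU-rich nonamer TTATTTATT occurred in DUSP1 (2 matches) and DUSP4 (1 match), against 9.83% of 11748 tested genes and 10.7% of those with a region of 672 to 5585 bases, the range of the 10. TGTGTGTG, a DNA spelling of the UG repeat that TDP-43 is known to bind, occurred in DUSP6 (4 overlapping matches) and SPRED1 (1 match), against 16.9% and 18.8%. Such matches are a description, not sites.

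Several of the genes overlap others, and the use of strand in counting is not stated in the labels or notes, so reads of overlapping parts cannot be assigned. GENCODE release 29 annotates antisense transcripts across exons of DUSP1, DUSP6, SPRY4 and ETV5. Searched by symbol, these antisense transcripts had no FPKM value, so their levels here are unknown. DHX8, on the other strand over ETV4, stood at 24.6 to 25.7 FPKM in the knockdown and 17.3 to 19.02 FPKM in the control. DGKG, on the same strand as ETV5 and overlapping it, stood at 3.06 to 3.61 FPKM against 0.298 to 0.411 FPKM. Both neighbours were thus at higher values where ETV4 and ETV5 were lower.

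Other paralogues of the same families moved both ways, and their difference from the 10 genes was not tested. Of 10 listed, 8 were tested, 4 fell, 1 rose and 3 did not pass, with a median of -0.24. For this and the lists that follow, the background was 35.9% of all tested genes called lower and 30.5% called higher. At least 2-fold lower were 7.95%. SPRED3 fell 2.33-fold (2.82 ± 0.388 against 6.59 ± 0.222 FPKM, limma adjusted p = 1.245e-05). DUSP16, a phosphatase of p38 and JNK, fell by 0.42 on the log2 scale, SPRED2 by 0.33 and DUSP7, a cytoplasmic ERK phosphatase like DUSP6, by 0.29. The DUSP7 call was lost with quantile normalization (limma adjusted p = 0.0671) and with no filter (0.0632). DUSP10, which acts on p38 and JNK, rose by 0.31, and was at -0.50 after scaling to equal column sums. ETV1, the remaining PEA3 factor, stood at 6.09 ± 0.355 against 6.54 ± 0.356 FPKM (limma adjusted p = 0.282), DUSP2 at 3.25 ± 0.581 against 3.18 ± 0.479 FPKM and DUSP8 at 2.45 ± 0.189 against 2.92 ± 0.281 FPKM. DUSP9 and SPRY3 were under the filter, at 0.150 and 0.616 FPKM in the knockdown and 0.141 and 0.803 FPKM in the control.

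Other genes that ERK induces were lower as well. Here and for the lists that follow, the knockdown value comes first, with its SD over 3 libraries. Of 25 listed 21 were tested, 19 fell and 2 rose, and 15 fell by at least 2-fold, with a median of -1.44. FOSL1, an AP-1 factor stabilised by ERK, stood at 0.595, 0.290 and 0.273 FPKM in the knockdown and at 20.6, 20.1 and 22.6 FPKM in the control. PHLDA1 stood at 0.731 ± 0.112 against 13.7 ± 0.410 FPKM and SPHK1, a sphingosine kinase, at 0.852 ± 0.181 against 13.9 ± 1.42 FPKM. HMGA2, a chromatin protein, had values of 6.61, 6.95 and 8.11 FPKM in the controls and was listed at 0 in each knockdown library. EGR1 and FOS, both immediate-early genes, and CCND1, chosen after their values were seen, were 4.54-fold, 6.47-fold and 2.73-fold lower. The 2 that rose were MYC, at 48.96 ± 0.645 against 14.2 ± 0.868 FPKM, and TRIB1, whose value of 0.51 became -0.26 at equal column sums.

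**Figure D5:**
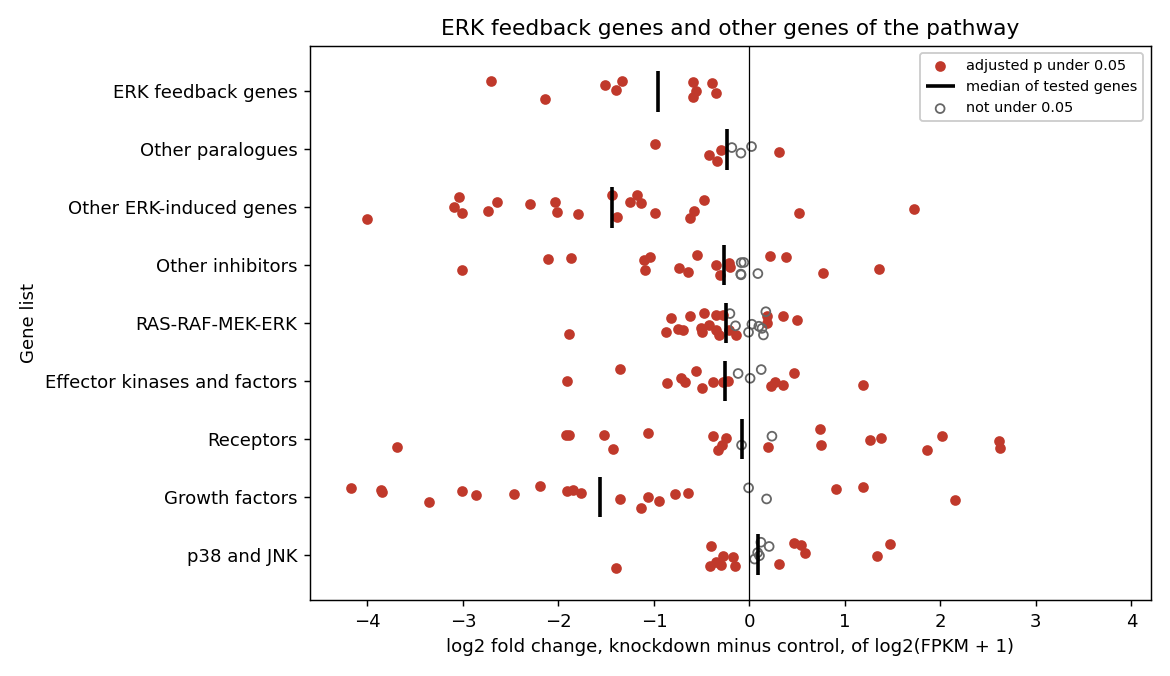
Log2 fold change (knockdown minus control) of the tested genes of 9 lists, each point a gene, filled where the adjusted p was under 0.05, with a bar at the median of each list. Medians lie at -0.96 for the ERK feedback genes, -1.44 for other ERK-induced genes and -1.56 for growth factors, and between -0.26 and 0.087 for the other 6 lists.

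Growth factors at the head of the pathway were mostly lower. Of 33 listed 22 were tested, 17 fell, 3 rose and 2 did not pass, and the median was -1.56. PDGFC stood at 0.0932 ± 0.0453 against 18.6 ± 0.468 FPKM, FGF5 at 0.605 ± 0.0529 against 22.1 ± 0.190 FPKM and PDGFA at 0.673 ± 0.0433 against 16.1 ± 0.621 FPKM. VEGFC, a ligand of endothelial receptors, was listed at 0.0466, 0 and 0 FPKM in the knockdown and at 13.7, 14.7 and 12.95 FPKM in the control. FGF7, FGF14 and NRTN rose by 2.15, 1.19 and 0.91. FGF14 is, like the listed FGF11, FGF12 and FGF13, a member of the family that is not secreted. MDK, or midkine, the most abundant of the list, stood at 377 ± 10.2 against 379 ± 14.7 FPKM (limma adjusted p = 0.865), and FGF11 at 2.82 ± 0.145 against 2.39 ± 0.452 FPKM (limma adjusted p = 0.167).

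Receptors of these factors moved both ways. Of 25 listed 21 were tested, 9 rose, 10 fell and 2 did not pass, with a median of -0.082. ALK, a receptor kinase that drives part of neuroblastomas, stood at 49.8 ± 0.759 against 7.32 ± 0.520 FPKM, and the neurotrophin receptor gene NTRK3 at 12.5 ± 0.223 against 1.18 ± 0.109 FPKM. FGFR2 stood at 13.5 ± 0.839 against 2.58 ± 0.221 FPKM. AXL went the other way, at 0.0407 ± 0.0261 against 12.4 ± 0.613 FPKM. EGFR and MET, chosen after their values were seen, were 3.09-fold and 5.29-fold lower. FGFR1, at 17.7 ± 0.981 against 18.8 ± 0.716 FPKM, and ERBB2, at 1.197 ± 0.0445 against 0.868 ± 0.127 FPKM, did not pass (limma adjusted p = 0.228 and 0.0528).

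The relay between receptor and ERK changed by smaller steps. Of 29 listed 28 were tested, 16 fell, 4 rose and 8 did not pass (median -0.25), and RRAS, a relative of RAS, was the one gene past 2-fold, at 4.797 ± 0.518 against 20.4 ± 0.553 FPKM. MAP2K1, which encodes MEK1, stood at 11.6 ± 0.467 against 21.3 ± 0.507 FPKM. BRAF, FRS3, MAP2K2 and MAP2K5 rose by 0.18, 0.49, 0.19 and 0.35, and each of the 4 was negative at equal column sums. MAPK3, for ERK1, chosen after its values were seen, stood at 12.2 ± 1.27 against 10.9 ± 0.539 FPKM (limma adjusted p = 0.127).

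Kinases and transcription factors that ERK acts on were split. All 18 listed were tested, 10 fell, 5 rose and 3 did not pass, with a median of -0.25. ELK3, a partner of serum response factor, stood at 15.9 ± 1.246 against 62.5 ± 2.17 FPKM. ATXN1, whose product works with the repressor Capicua on PEA3 genes, stood at 1.52 ± 0.215 against 5.44 ± 0.2198 FPKM, and the kinase gene RPS6KA4 fell by 0.86. RPS6KA5, which encodes the nuclear kinase MSK1, rose by 1.19, and RPS6KA2, RPS6KA6, MKNK2 and ELK1 rose by 0.23, 0.35, 0.26 and 0.47, the last 4 being negative at equal column sums. CIC, for Capicua itself, stood at 12.3 ± 0.953 against 12.2 ± 0.895 FPKM (limma adjusted p = 0.935), CREB1 at 13.2 ± 1.68 against 14.3 ± 0.673 FPKM and RPS6KA1 at 3.39 ± 0.0815 against 3.04 ± 0.404 FPKM.

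The list of other inhibitors of receptors and RAS included both large falls and a large rise. FLRT2 and FLRT3, also on it, are not established inhibitors. Of 25 listed 22 were tested, 13 fell, 4 rose and 5 did not pass (median -0.26). ERRFI1, an ERK-induced inhibitor of the EGF receptor, stood at 7.15 ± 0.271 against 28.8 ± 0.598 FPKM and the adaptor GRB14 at 1.504 ± 0.0503 against 9.84 ± 0.368 FPKM. FLRT2 had values of 7.15, 7.26 and 6.77 FPKM in the controls and was listed at 0 in each knockdown library. IL17RD, the FGF antagonist known as Sef, which like the Sprouty genes is a feedback gene, stood at 31.2 ± 1.01 against 11.6 ± 0.409 FPKM, a rise of 1.36 where all 10 feedback genes above fell. FLRT3 rose by 0.77 and did not pass at equal column sums, and CBLB rose by 0.21 but was negative there. DAB2IP, LRIG1, PEBP1, PTPN2 and RASA2 did not pass, with log2 fold changes of -0.090 to 0.089.

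The p38 and JNK relays, whose last kinases are substrates of DUSP1, DUSP4, DUSP10 and DUSP16, had no common direction. Of 20 listed 19 were tested, 6 rose, 8 fell and 5 did not pass (median 0.087), beside 30.5% higher and 35.9% lower of all tested genes. MAP2K6, an activator of p38, stood at 26.8 ± 2.90 against 9.99 ± 1.11 FPKM, and MAP2K3, with the same task, at 5.31 ± 0.706 against 15.6 ± 0.736 FPKM. The scaffold genes MAPK8IP2 and MAPK8IP3 rose by 1.47 and 0.58, the latter being at -0.25 with equal column sums. MAP3K5, MAPK11, MAPK12, MAPK8 and MAPK8IP1 did not pass, with log2 fold changes of 0.054 to 0.21.

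Markers of mesenchymal (substrate-adherent) neuroblastoma cells were lower in the knockdown, as the 10 ERK feedback genes were. Of 22 listed 20 were in the table and tested, 19 fell and SNAI2 did not pass, and their summed level was 688.6 to 716 FPKM in the knockdown libraries and 4045 to 4104 FPKM in the controls. ANXA1 and CAV1 were listed at 0 in the 3 knockdown libraries, and PRRX1 at 0, 0.0304 and 0.0168 FPKM there. FOSL1 is on this list and on that of ERK-induced genes. Among 10 markers of Schwann cells and glia, 4 passed the filter, of which 3 rose, S100B and NGFR among them, and PMP22 fell, with summed levels of 52.8 to 53.7 against 45.4 to 48.05 FPKM, and SOX10 stood at 0.217 to 0.435 FPKM in all libraries. The part of these markers in the change of the 10 ERK feedback genes was not tested.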

How the data were processed

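The authors' deposited table gives FPKM per gene for 6 poly(A) libraries, 3 per arm, whose preparation kept strand, per the labels' protocols. TopHat2 2.1.0, SAMtools and Cuffdiff 2.2.1 with hg38 are named in the submitters' processing notes, without roles. Annotation and strand setting: not given in the sources used here. The 10 members and all lists were chosen with earlier results of these data known.

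From these values log2(FPKM + 1) was computed, which understates the change of low genes. Genes with a mean of at least 1 FPKM were compared by limma 3.58.1 (R 4.3.3) with an intensity trend, with Benjamini-Hochberg adjustment over 13434 genes and calls at an adjusted p under 0.05. On simulated data of 13434 genes this test called 38%, 82%, 92% and 100% of the genes given changes of 1.25-fold, 1.5-fold, 2-fold and 4-fold (50 genes per size), with 7 false among 163 calls. Relative depth was read from how values under 0.3 FPKM step, as their most frequent ratio between libraries. At most 1 non-zero value was identical between any pair of libraries. An FPKM of exactly 0 can be a failed estimate.

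Named genes were TARDBP, the 10 members, their listed paralogues, up to 4 called genes of largest change per other list, and genes behind counts of 5 or fewer. Some genes that this rule names are not reported here. Positions and 3′ untranslated regions came from GENCODE release 29, promoters from RefSeq. Python 3.11.15 with numpy 2.4.6, pandas 2.3.3, scipy 1.17.1 and matplotlib 3.10.9 was used. Alternatives were other pseudocounts (0.1, 0.5), filters and scalings, a replicate block, limma without trend or robust, leaving out each library and, chosen after seeing the data, leaving out genes at an exact 0.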

Additional observations from a re-analysis of the deposited data

How the results depend on the processing

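The 10 ERK feedback genes were negative in every setting run, and 9 or 10 of them were called lower in each, with SPRED1 the one lost and DUSP5 untested at a minimum mean of 5 FPKM. Leaving out a library in turn gave 9 to 10 members called lower, 3626 to 4208 genes called higher and 4350 to 4920 called lower. With library number as a replicate block 3894 genes were higher, 4667 lower and 10 members lower. Deviations of same-numbered libraries correlated at -0.0185, -0.185 and -0.0911, and no library correlated best with its own number. These values show no pairing by number. They cannot decide whether same-numbered libraries were prepared together, which the labels do not state.

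At equal column sums, a scaling that moved the median of all genes to -0.82, 522 genes were higher and 11689 lower. Of paralogues 0 were then higher and 8 lower, and of ERK-induced genes 1 was higher. The inhibitor list had 1 higher and 20 lower, and the relay 0 higher and 27 lower. Of effectors 1 was higher and 17 lower, and of the p38 and JNK list 2 were higher and 16 lower. Quantile normalization gave 9 higher genes of the relay. A minimum mean of 5 FPKM, which tests fewer genes, gave 3 higher effectors and 11 lower growth factors.

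Single genes changed sign under 2 scalings. At equal column sums the log2 fold changes were -0.67 for DUSP2, -0.50 for DUSP10, -0.26 for TRIB1, -0.60 for CBLB, -0.53 for LRIG1, -0.67 for BRAF, -0.21 for FRS3, -0.69 for MAP2K2, -0.48 for MAP2K5, -0.36 for ELK1 and -0.57 for MKNK2. They were -0.65 for RPS6KA2, -0.39 for RPS6KA6, -0.83 for CIC, -0.57 for RPS6KA1, -0.48 for FGF11, -0.25 for MAPK8IP3, -0.36 for MAP3K5, -0.69 for MAPK11, -0.76 for MAPK12, -0.74 for MAPK8 and -0.69 for MAPK8IP1. Quantile normalization gave 0.20 for PEBP1 and 0.094 for MDK. For quantile normalization the cause was not tested. With the 6 small RNAs kept out of the column sums, all 80 named genes tested kept their call or lack of one. No called gene among them changed sign there. Absolute depth is unknown, so no floor or interval from counts can be given.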
